A study of Mus musculus with 6 samples.

Results

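The solute carriers, whose gene symbols begin with Slc, are a large group of membrane transport proteins. They were examined in RNA sequencing data from mouse embryonic stem cell (ESC) cultures sorted on the surface proteins PECAM1 and PDGFRa. A gene was included when its symbol began with Slc and a number, did not carry the pseudogene ending -ps, and its raw counts summed to at least 60 over the 6 libraries. This rule took in 216 of the 38561 genes of the count table, out of 369 genes with an Slc symbol. Of the other 153 genes, 38 had 0 counts in every library. Just inside the limit were Slc24a5 with 60 counts and Slc12a5 and Slc7a9 with 64 each; just outside were Slc26a6 with 57 counts and Slc25a2 and Slc25a47 with 52 each. All 216 genes passed the filter on low counts and were tested. The sum that chose them runs over all fractions, so a gene silent in 1 fraction entered through its level in the others.

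Each Slc subfamily groups related proteins, which often carry similar solutes. Some stand in the plasma membrane and take up glucose, amino acids, metals or phosphate, while others serve the inner mitochondrial membrane (Slc25) or bring nucleotide sugars into the Golgi apparatus (Slc35). Many run on the sodium gradient kept by the sodium pump, others exchange one solute for another, and the heavy chain Slc3a2 carries several Slc7 light chains to the cell surface. In the early embryo the pluripotent cells rely on glucose and amino acid uptake, and the extraembryonic endoderm, which arises from primitive endoderm, takes up nutrients and maternal proteins on behalf of the embryo.

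The ESCs (strain: 129X1/SvJ x 129S1/Sv) were used at passages 13 to 17, grown without feeder cells in medium with 20% Knockout Serum Replacement, 2 mM glutamine and 1000 U/ml leukemia inhibitory factor. The sort gave 3 fractions. The PDGFRa-only fraction (PECAM1minPDGFRaplus in the labels) carried PDGFRa and not PECAM1, the double-positive fraction (PECAM1plusPDGFRaplus) carried both, and the PECAM1-only fraction (PECAM1plusPDGFRamin) carried PECAM1 and not PDGFRa. Each fraction has 2 libraries, numbered Exp1 and Exp2 in the labels and called replicates 1 and 2 here, each from RNA of 100000 sorted events that was amplified with the Ovation kit before sequencing. Whether Exp1 and Exp2 were grown or sorted apart is not in the labels, so every p-value measures the spread between these libraries, which may be technical. In sorted pools, fewer cells of a type and less RNA per cell cannot be told apart.

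Total counts were 4809661 and 7273669 in PDGFRa-only libraries, 6568777 and 6634022 in double-positive libraries, and 6147345 and 5694077 in PECAM1-only libraries. Both sorting genes followed the labels: Pdgfra had 509 and 605 CPM (counts scaled to a common library size) in PDGFRa-only libraries, 552 and 518 in double-positive libraries, and 2.04 and 1.88 in PECAM1-only libraries, and Pecam1 had 1.57 and 1.51, 53.8 and 44.9, and 166 and 143 CPM in the same fractions. The summed level of 6 primitive endoderm genes (Gata4, Gata6, Sox17, Foxa2, Dab2, Pdgfra) was 4261 to 4524 CPM in PDGFRa-only, 3239 to 3391 in double-positive and 13.975 to 17.9 in PECAM1-only libraries. The 6 genes of pluripotent cells (Pou5f1, Sox2, Nanog, Esrrb, Zfp42, Tdgf1) summed to 108 to 153 CPM in PDGFRa-only, 408 to 478 in double-positive and 1357 to 1416 in PECAM1-only libraries. Trophoblast genes stayed at or below 13.8 CPM in sum and fibroblast genes at or below 7.55 CPM in every library. A list of 8 blood and endothelial genes summed to 61.0 to 117 CPM in PDGFRa-only, 45.8 to 65.1 in double-positive and 1.89 to 2.51 in PECAM1-only libraries, nearly all of it from Cdh5, while Ptprc, Emcn and Erg were at 0 in all libraries. The part of these marker differences in the results below was not tested.

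Set against PECAM1-only cells, 108 of the 216 Slc genes were higher in PDGFRa-only cells, 45 were lower and 63 did not pass (edgeR quasi-likelihood test, adjusted p under 0.05 over all 13909 genes tested). Over all genes tested, 30.1% were higher and 28.8% lower, and among the tested genes with at least 60 counts these shares were 31.2% and 27.9%. The median log2 fold change was 0.68 over the Slc genes and 0.01 over all genes. Upper-quartile scaling moved the median of all genes to -0.20 and gave 99 higher and 55 lower Slc genes. Scaling by library size alone moved this median to -0.28 and gave 94 higher and 61 lower Slc genes. At least 2-fold changes were fitted for 82 of the higher and 40 of the lower Slc genes, a count that was not made over all genes. Slc24a3, Slc6a2 and Slc27a2 had 0 counts in 1 of these fractions, so their changes are given as bounds where they are described. When limma was applied to the deposited RPKM values instead, 90 of the 108 higher and 43 of the 45 lower genes were called again, and the change was over 1.5 times smaller for 57 and 23 of them.

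The double-positive fraction was compared with the PECAM1-only fraction in the same way, with 93 Slc genes higher and 32 lower, beside 21.8% and 16.4% of all genes tested, or 22.6% and 16.5% of those with at least 60 counts. Upper-quartile scaling gave 77 higher and 41 lower here, and library size alone gave 74 and 45. Against the double-positive fraction, PDGFRa-only cells had 21 Slc genes higher and 27 lower, beside 5.94% and 11.7% of all genes tested, or 6.31% and 11.6% of those with at least 60 counts. With library size alone this split became 13 higher and 27 lower, and with RPKM 5 and 8. The higher count was 3 without double-positive replicate 1, 5 without double-positive replicate 2 and 29 without PDGFRa-only replicate 2, and 13 with DESeq2. The comparisons share libraries, so their counts are not independent of each other.

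Among the 9 substrate classes, that of nucleotide sugars and acetyl-CoA held the largest share of higher genes in PDGFRa-only cells. Against PECAM1-only cells, 18 of its 22 genes were higher and 1 was lower, with a median log2 fold change of 1.42. Its genes, selected on summed raw counts of at least 60 like all others here, were the 21 Slc35 genes and Slc33a1. The class thus followed gene family, and whether each gene carries these substrates was not tested. The shares over all genes tested were 30.1% higher and 28.8% lower. Carriers of monocarboxylates and dicarboxylates followed with 8 of 11 higher, 2 lower and a median of 1.14. Metal and haem carriers had 15 of 23 higher and 2 lower, with a median of 1.08. Amino acid and neurotransmitter carriers had 16 of 31 higher and 8 lower, with a median of 0.94. Of the remaining classes, inorganic ions had 16 higher and 10 lower of 33, and nucleosides, vitamins and choline 8 and 4 of 19. Mitochondrial carriers, with 14 higher (36.8%) and 8 lower (21.1%) of 38, and lipids, organic ions, peptides and vesicular carriers, with 5 each way (23.8%) of 21, were near the shares over all genes. With library size alone inorganic ion carriers split 13 and 13, and mitochondrial carriers 12 and 12. Sugar carriers had 6 higher and 5 lower of 14, with a median of 0.10 that turned to -0.11 with upper-quartile scaling and -0.19 with library size alone. The other 4 genes with an Slc symbol do not encode transporters, and 2 of them were higher: the scaffold protein gene Slc9a3r1 by 1.95 ± 0.20 (adjusted p = 2.95e-08) and Slc7a6os by 0.62 ± 0.18 (adjusted p = 0.00529).

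**Figure D1:**
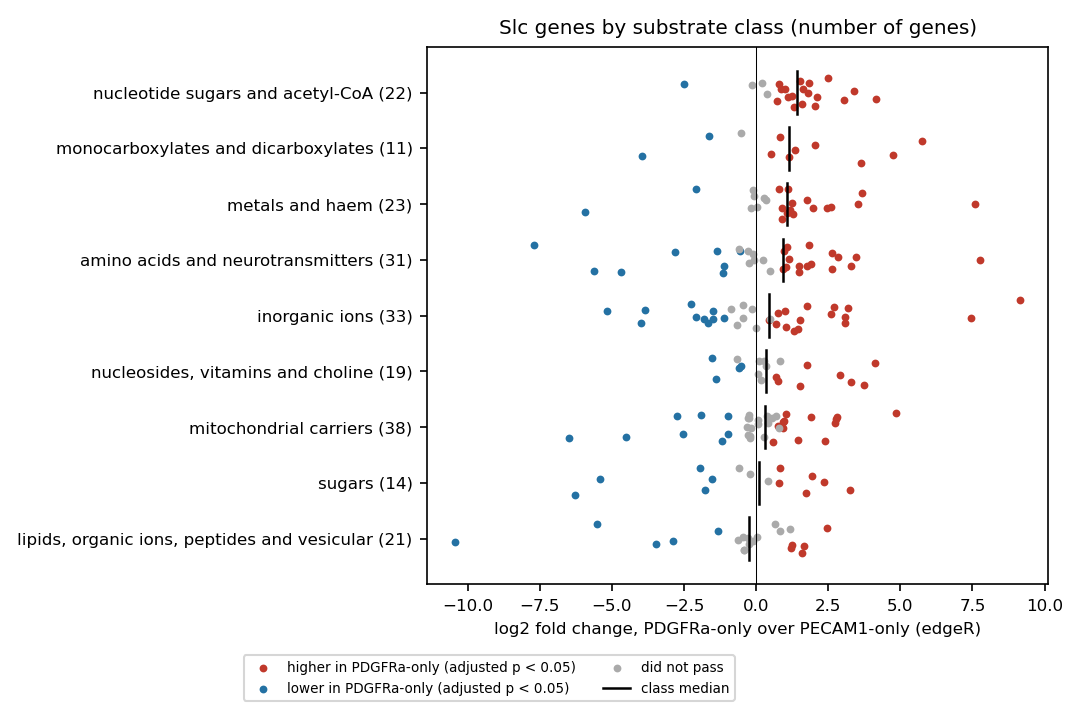
Each point is 1 Slc gene, placed by its log2 fold change in PDGFRa-only over PECAM1-only cells (x axis) within its substrate class (rows, number of genes in parentheses); red points were higher and blue points lower in PDGFRa-only cells, grey points did not pass, and black bars are class medians; the points of Slc24a3, Slc6a2 and Slc27a2, with 0 counts in 1 fraction, are fitted values and not sizes. The class medians run from 1.42 for nucleotide sugars and acetyl-CoA to -0.25 for lipids, organic ions, peptides and vesicular carriers.

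**Figure D2:**
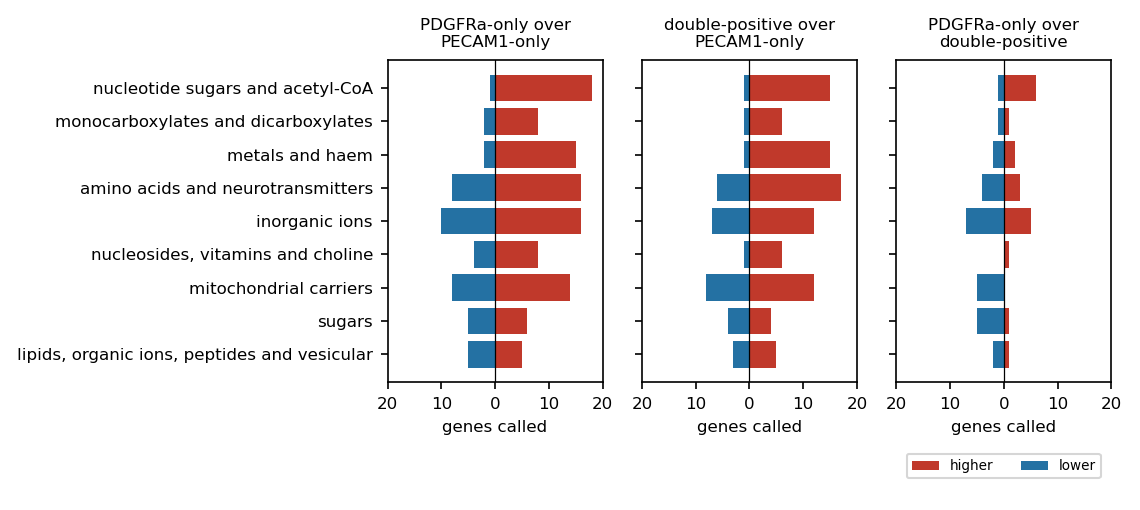
Bars give the number of genes called higher (red, to the right) and lower (blue, to the left) in each substrate class for the 3 comparisons. PDGFRa-only over double-positive, in the right-hand panel, has the fewest calls. There 6 of 22 genes of the nucleotide sugar and acetyl-CoA class were higher (27.3%) and 1 was lower. Inorganic ion carriers had 5 higher (15.2%) and 7 lower (21.2%) of 33. Sugar carriers had 1 higher and 5 lower (35.7%) of 14, and mitochondrial carriers 0 higher and 5 lower (13.2%) of 38. Over all genes tested 5.94% were higher and 11.7% lower, so the share of lower mitochondrial carriers was near that of all genes.

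Glucose carriers were among the most abundant Slc genes per exon length. Averaged over the 6 libraries, Slc2a3 (ENSMUSG00000003153, GRCm38 chromosome 6, 122727809 to 122801640) was the highest at 341 CPM per kb of exon, the mitochondrial carrier Slc25a4 followed at 183, and Slc2a1 (ENSMUSG00000028645, chromosome 4, 119108711 to 119137983) came next at 153. Slc2a3 and Slc2a1 are facilitative glucose transporters, known as GLUT3 and GLUT1. Slc2a1 had 205 and 305 CPM in PDGFRa-only libraries, 419 and 521 in double-positive libraries, and 868 and 893 in PECAM1-only libraries. The 3 fractions did not overlap, and Slc2a1 fell by 1.79 ± 0.19 (SE, log2) in PDGFRa-only cells against PECAM1-only cells (adjusted p = 5.18e-08).

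Slc2a3 ran the other way, with 2344 and 3682 CPM in PDGFRa-only, 2508 and 2821 in double-positive and 1635 and 1826 in PECAM1-only libraries. The PDGFRa-only and PECAM1-only libraries did not overlap, and the log2 fold change was 0.80 ± 0.19 (adjusted p = 0.0013). It was 0.44 without PDGFRa-only replicate 2 and 0.51 with library size alone. In the deposited RPKM values it was -0.99 and did not pass (adjusted p = 0.188), and the change of Slc2a1 was -4.29 there. In double-positive over PECAM1-only cells Slc2a3 was called higher by 0.62 (adjusted p = 0.0143), which did not pass with upper-quartile scaling (0.46), with library size alone (0.41), or when PECAM1-only replicate 1 (0.57) or double-positive replicate 2 (0.54) was left out, and was -0.99 in RPKM. Per exon length, Slc2a1 made up 15.3% and 14.6% of the sum of both genes in PDGFRa-only libraries, 25.7% and 27.6% in double-positive libraries, and 52.3% and 50.3% in PECAM1-only libraries. The sum itself was 489 ± 151, 502 ± 51.2 and 490.0 ± 23.7 CPM per kb in the same fractions (SD, n = 2 each).

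Other sugar carriers moved both ways. The glucose-6-phosphate carrier of the endoplasmic reticulum, Slc37a4, averaged 12.4 ± 2.05 CPM in PDGFRa-only, 9.49 ± 0.739 in double-positive and 1.29 ± 0.174 in PECAM1-only libraries (SD, n = 2 each; log2 fold change 3.27 ± 0.36 in PDGFRa-only over PECAM1-only cells, adjusted p = 1.17e-07). Slc50a1, a sugar transporter of the SWEET family, was higher by 2.37 ± 0.28 (adjusted p = 3.47e-07). The sodium-coupled glucose carrier Slc5a1 had 1 count in the PDGFRa-only libraries together, against 9.17 and 7.997 CPM in PECAM1-only libraries, a 95.3-fold lower level with an exact 95% counting interval of 16.8 to 3797. Slc45a4 fell by 1.93 ± 0.23 (adjusted p = 3.29e-07). The myo-inositol carrier Slc5a3 had overlapping values in all fractions, at 26.9 to 61.5 CPM, and did not pass in any comparison. Counting intervals and floors cover counting error only, because reads of amplified RNA that carry no molecular identifier do not each stand for 1 molecule.

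**Figure D3:**
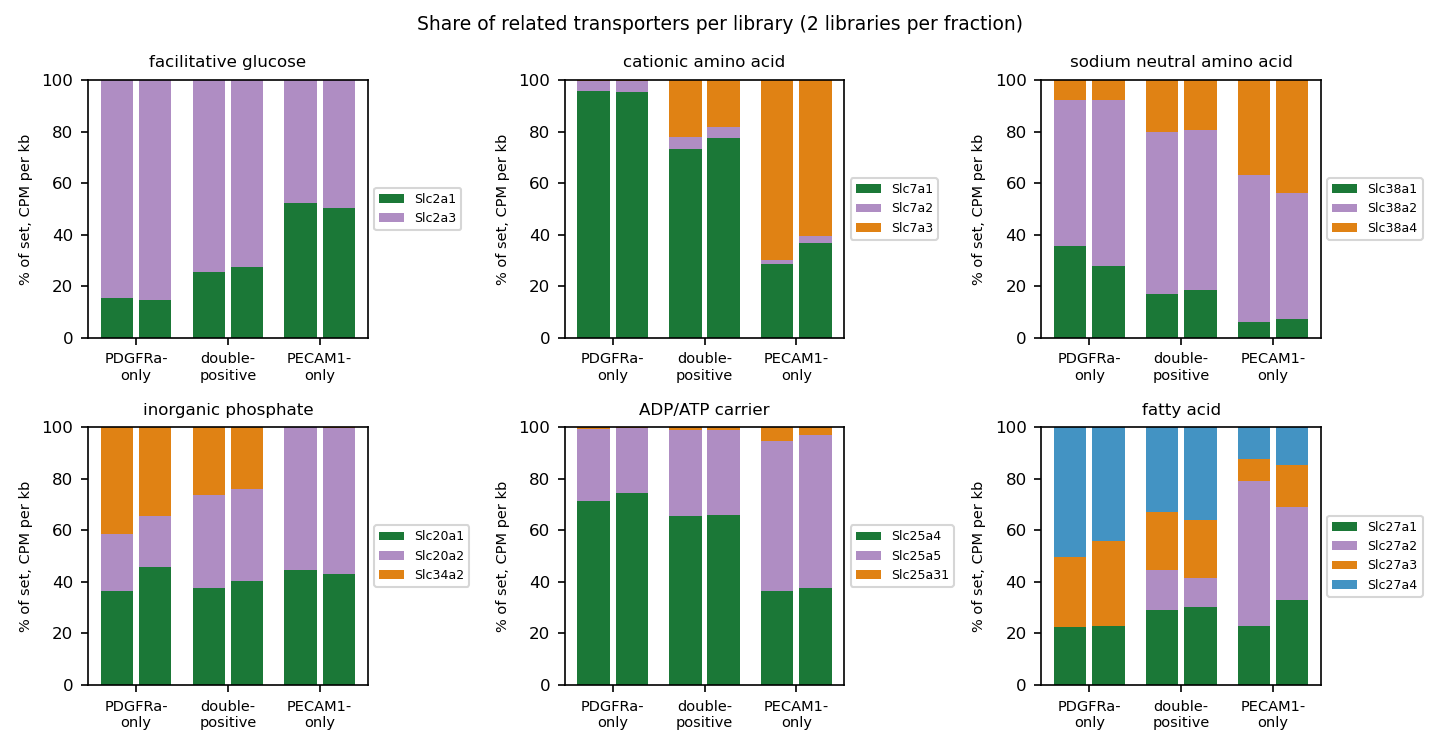
Stacked bars give the share of each related transporter in the summed CPM per kb of its set, for each of the 6 libraries in 6 sets of carriers with like substrates. The Slc2a1, Slc7a3 and Slc20a2 shares are lowest in both PDGFRa-only libraries and highest in both PECAM1-only libraries, and Slc34a2 makes up 24.0% to 41.3% of its set in the PDGFRa-only and double-positive libraries.

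Cationic amino acids such as arginine and lysine enter through the Slc7a1 to Slc7a3 carriers. Slc7a3 (ENSMUSG00000031297, chromosome X, 101079210 to 101086020) had 0.898 and 0.755 CPM in PDGFRa-only, 54.0 and 38.6 in double-positive and 205 and 144 in PECAM1-only libraries. No fraction overlapped another, and Slc7a3 fell by 7.71 ± 0.33 in PDGFRa-only against PECAM1-only cells (adjusted p = 6.31e-14). Slc7a1 (ENSMUSG00000041313, chromosome 5, 148327410 to 148399904) had 591 and 565 CPM in PDGFRa-only, 543 and 502 in double-positive and 255 and 269 in PECAM1-only libraries, 1.14 ± 0.15 higher on the log2 scale in PDGFRa-only over PECAM1-only cells (adjusted p = 1.91e-06). Per exon length Slc7a1 made up 95.6% and 95.3% of the 3 genes in PDGFRa-only libraries, 73.4% and 77.5% in double-positive libraries and 28.5% and 36.9% in PECAM1-only libraries. Their sum was 52.5 ± 1.53 CPM per kb in PDGFRa-only, 60.2 ± 5.68 in double-positive and 70.5 ± 10.2 in PECAM1-only cells (SD, n = 2 each). Slc7a2 was higher in double-positive than in PECAM1-only cells by 0.75 (adjusted p = 0.0109), a call that was lost with library size alone (0.53), with DESeq2 (0.68), with RPKM (0.39), and when PECAM1-only replicate 1 (0.62) or double-positive replicate 1 (0.66) was left out.

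The heavy chain Slc3a2 did not pass between any fractions, with 334 and 333 CPM in PDGFRa-only, 295 and 315 in double-positive and 280.2 and 283 in PECAM1-only libraries. Among its light chains, Slc7a5, the main carrier of large neutral amino acids, did not pass either (log2 fold change -0.24 ± 0.16, adjusted p = 0.21), although it was called lower with upper-quartile scaling (-0.44), library size alone (-0.52) and RPKM (-0.62) and without PDGFRa-only replicate 1 (-0.40). Slc7a6 (ENSMUSG00000031904, chromosome 8, 106168857 to 106198706), an exchanger of cationic for neutral amino acids, had 292 and 355 CPM in PDGFRa-only, 223 and 214 in double-positive and 34.4 and 32.1 in PECAM1-only libraries. Every PDGFRa-positive library was above both PECAM1-only libraries, and the difference was 3.28 ± 0.17 on the log2 scale for PDGFRa-only cells (adjusted p = 1.46e-12) and 2.72 ± 0.17 for double-positive cells (adjusted p = 5.08e-11). Of the 4 light chains measured, Slc7a6 made up 44.5% and 54.6% in PDGFRa-only, 35.8% and 38.3% in double-positive and 7.66% and 7.67% in PECAM1-only libraries, per exon length.

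Sodium-coupled carriers of neutral amino acids moved against each other. Slc38a4 (ENSMUSG00000022464, chromosome 15, 96994820 to 97055956) had 31.7 and 33.7 CPM in PDGFRa-only, 105 and 96.4 in double-positive and 234 and 226 in PECAM1-only libraries. It fell by 2.81 ± 0.17 in PDGFRa-only against PECAM1-only cells (adjusted p = 1.02e-11) and by 1.62 ± 0.17 against double-positive cells (adjusted p = 5.69e-07). Slc38a1, a glutamine carrier that lies on the same chromosome at 96571418 to 96642913, had 586 and 495 CPM in PDGFRa-only, 359 and 368 in double-positive and 153 and 151 in PECAM1-only libraries. Its log2 fold change was 1.83 ± 0.16 in PDGFRa-only over PECAM1-only cells (adjusted p = 3.10e-09). The related Slc38a2, whose levels overlapped across PDGFRa-only and PECAM1-only libraries, did not pass at -0.27 ± 0.18 (adjusted p = 0.21), but it was called lower with upper-quartile scaling (-0.47), with library size alone (-0.56), without PDGFRa-only replicate 2 (-0.42) and without PECAM1-only replicate 2 (-0.50).

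The glutamate carriers Slc1a1 and Slc1a3 went in opposite directions. Slc1a1, a neuronal and epithelial glutamate and cysteine carrier, had 0 and 1.06 CPM in PDGFRa-only, 5.82 and 3.13 in double-positive and 20.2 and 12.7 in PECAM1-only libraries, and fell by 4.68 ± 0.54 (adjusted p = 3.23e-07), and no count is left in the fraction without PDGFRa-only replicate 2, where the fitted change of -9.65 has no defined size. Slc1a3, known as the glial glutamate carrier, had 39.7 and 32.6 CPM in PDGFRa-only, 45.3 and 37.6 in double-positive and 19.1 and 18.3 in PECAM1-only libraries (log2 fold change 0.94 ± 0.20, adjusted p = 0.000477). The glutamine carrier Slc1a5 fell by 1.12 ± 0.22 in PDGFRa-only against PECAM1-only cells (adjusted p = 0.000142). The creatine carrier Slc6a8 was higher in PDGFRa-only cells, with 262 and 318 CPM against 96.2 and 109 CPM in PECAM1-only libraries (adjusted p = 8.51e-08), and the taurine carrier Slc6a6 fell by 0.57 ± 0.16 (adjusted p = 0.00504), or by 0.85 with library size alone and 0.94 in RPKM. Slc6a2, the noradrenaline carrier, had 0 counts in the PECAM1-only libraries and was at least 18.3-fold higher in PDGFRa-only cells, against a floor of 3 counts over the fraction.

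Carriers of zinc were more often higher than lower in PDGFRa-only cells against PECAM1-only cells. Slc39a8 (ENSMUSG00000053897, chromosome 3, 135825279 to 135888572), an importer of zinc and manganese, had 102 and 107 CPM in PDGFRa-only, 58.9 and 64.0 in double-positive and 0.873 and 0.157 in PECAM1-only libraries, which is 7.58 ± 0.33 higher on the log2 scale in PDGFRa-only over PECAM1-only cells (adjusted p = 6.36e-14). The PDGFRa-only, double-positive and PECAM1-only libraries formed separate steps. Of the 11 Slc39 zinc importers, 7 were higher in PDGFRa-only cells (63.6%) and none was lower. The shares were 30.1% higher and 28.8% lower over all genes tested, and 50% and 20.8% over the Slc genes. Slc39a1 was among the 7, at 2.59 ± 0.24 (adjusted p = 8.06e-09). The abundant Slc39a10 did not pass (-0.10 ± 0.16, adjusted p = 0.609), but was called lower with library size alone (-0.39).

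Of the 7 Slc30 carriers, which move zinc out of the cytosol, 4 were higher (57.1%) and 1 was lower (14.3%) in PDGFRa-only cells. These shares were near the 50% and 20.8% of the Slc genes. Over all genes tested they were 30.1% and 28.8%. Slc30a4 (ENSMUSG00000005802, chromosome 2, 122681233 to 122702663) had 64.7 and 62.2 CPM in PDGFRa-only, 50.5 and 52.3 in double-positive and 4.95 and 5.02 in PECAM1-only libraries (log2 fold change 3.66 ± 0.22, adjusted p = 8.70e-12). Slc30a7, a Golgi carrier, was higher by 1.78 ± 0.20 (adjusted p = 1.62e-07). Slc30a5 was higher by 0.89 ± 0.24 (adjusted p = 0.00334), which did not pass without PDGFRa-only replicate 2 (0.28) or with RPKM (0.64). Slc30a2 (ENSMUSG00000028836, chromosome 4, 134343181 to 134354484), a vesicular carrier, had 1 count in the PDGFRa-only libraries together, 1.10 and 1.10 CPM in double-positive libraries and 8.59 and 4.86 in PECAM1-only libraries. Its level in PDGFRa-only cells was 75.2-fold lower than in PECAM1-only cells, with a 95% counting interval of 13.2 to 3004. Slc30a1, the zinc exporter of the plasma membrane, did not pass, with 26.04 and 24.5 CPM in PDGFRa-only, 31.9 and 31.3 in double-positive and 23.4 and 25.6 in PECAM1-only libraries. It was named after its values were seen.

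Slc30a1 is a textbook target of the zinc sensor Mtf1, which binds metal response elements, whose core was searched as TGCGCNC and TGCACNC on both strands. The promoters of the 3 carriers, chosen after their values were seen, are shown because these zinc carriers differed in how their levels ran across the fractions. They are RefSeq sequences of the build GRCm38.p6, 250 bases before to 50 after the annotated start, and capitals mark the matches. Slc30a4 lies at chr2:122702614-122702913 on the minus strand, Slc30a1 at chr1:191906531-191906830 on the plus strand and Slc30a2 at chr4:134343216-134343515 on the plus strand.
Slc30a4: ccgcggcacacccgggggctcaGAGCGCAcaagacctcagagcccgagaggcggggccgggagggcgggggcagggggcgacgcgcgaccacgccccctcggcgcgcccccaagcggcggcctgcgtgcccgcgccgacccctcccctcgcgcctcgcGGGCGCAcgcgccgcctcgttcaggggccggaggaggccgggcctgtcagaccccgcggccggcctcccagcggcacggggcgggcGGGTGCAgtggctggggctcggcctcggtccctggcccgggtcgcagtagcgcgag
Slc30a2: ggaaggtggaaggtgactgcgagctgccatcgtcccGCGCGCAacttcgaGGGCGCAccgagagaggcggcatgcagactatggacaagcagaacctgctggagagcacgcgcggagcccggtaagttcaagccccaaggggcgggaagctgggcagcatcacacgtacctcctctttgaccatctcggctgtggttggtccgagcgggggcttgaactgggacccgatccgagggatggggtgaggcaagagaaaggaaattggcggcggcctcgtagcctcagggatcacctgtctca
Slc30a1: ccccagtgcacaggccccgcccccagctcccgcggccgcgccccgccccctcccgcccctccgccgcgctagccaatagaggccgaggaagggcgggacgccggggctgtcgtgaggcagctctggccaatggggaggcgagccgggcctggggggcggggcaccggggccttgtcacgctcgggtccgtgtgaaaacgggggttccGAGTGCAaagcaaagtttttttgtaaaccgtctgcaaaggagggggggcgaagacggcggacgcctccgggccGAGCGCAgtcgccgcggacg

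Slc30a4 held 3 matches, and Slc30a2 and Slc30a1 held 2 each. The RefSeq start of Slc30a2 lies inside the gene as GENCODE annotates it. Promoters were found for 165 of the 216 Slc genes. TGCGCNC occurred in 41 of them (24.8%), against 15.5% of all 27025 promoters in the table, and in 27 of 83 genes higher (32.5%) and 5 of 34 genes lower (14.7%) in PDGFRa-only over PECAM1-only cells. TGCACNC occurred in 17.6% of the Slc promoters and 12.4% of all. By direction it ran the other way from TGCGCNC, in 14 of 83 genes higher (16.9%) and 7 of 34 genes lower (20.6%). The Slc promoters were richer in G and C, with a median of 62%, against 52.7% over all promoters. The palindrome CACGTG, the E-box bound by the lysosomal and Myc families of factors, was found in 13.3% of Slc promoters and 7.24% of all. It was in 10.8% of the promoters of higher and 20.6% of those of lower Slc genes. The GATA-type motifs AGATAA and TGATAA were found in 7.27% and 4.24% of Slc promoters, against 11.4% and 9.26% of all, and the octamer ATGCAAAT in 0.606% against 1.75%. AGATAA was in 3.61% of the higher and 8.82% of the lower genes, and TGATAA in 4.82% and 2.94%. Differences between higher and lower genes were not tested for any motif. All motifs were searched on both strands, and a match describes letters, not a bound site.

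Iron and copper carriers were mostly higher in PDGFRa-only cells. The iron importer Slc11a2 had 137 and 119 CPM in PDGFRa-only, 96.5 and 96.9 in double-positive and 52.6 and 53.8 in PECAM1-only libraries (log2 fold change 1.27 ± 0.16, adjusted p = 1.10e-06). The copper importers Slc31a1 and Slc31a2 were higher by 1.23 ± 0.18 (adjusted p = 7.54e-06) and 1.17 ± 0.20 (adjusted p = 4.59e-05). The iron exporter Slc40a1, named after its values were seen, had 6.29 and 6.496 CPM in PDGFRa-only, 4.09 and 7.04 in double-positive and 0.437 and 0.627 in PECAM1-only libraries (3.55 ± 0.52, adjusted p = 5.67e-06). The haem carrier Slc48a1 fell by 2.08 ± 0.38 (adjusted p = 7.57e-05); its exons overlap Hdac7. The transferrin receptor gene Tfrc, which brings in protein-bound iron, ran opposite to the iron carriers, with 19.8 and 15.4 CPM in PDGFRa-only, 113 and 111 in double-positive and 425 and 473 in PECAM1-only libraries (-4.69 ± 0.19, adjusted p = 2.71e-14).

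Phosphate carriers moved in opposite directions. The sodium-phosphate cotransporter Slc34a2 (ENSMUSG00000029188, chromosome 5, 53038081 to 53071664), known from lung and intestinal epithelium, had 97.4 and 95.9 CPM in PDGFRa-only, 62.0 and 65.2 in double-positive and 0 and 0.314 in PECAM1-only libraries. The PECAM1-only libraries held 2 counts together, so its level in PDGFRa-only cells was 639-fold higher with a 95% counting interval of 177 to 5286, and 421-fold higher in double-positive cells with an interval of 116 to 3486. Slc20a2, a phosphate carrier of most cells, had 65.3 and 67.4 CPM in PDGFRa-only, 106 and 120.2 in double-positive and 183 and 189 in PECAM1-only libraries. It fell by 1.48 ± 0.16 in PDGFRa-only against PECAM1-only cells (adjusted p = 8.64e-08). Slc20a1 did not pass (-0.13 ± 0.18, adjusted p = 0.558), but was called lower with library size alone (-0.42) and without PDGFRa-only replicate 2 (-0.45).

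Per exon length, the sum of the 3 phosphate carriers was 51.2 ± 5.99 CPM per kb in PDGFRa-only, 50.7 ± 5.07 in double-positive and 53.3 ± 0.300 in PECAM1-only cells (SD, n = 2 each). Slc34a2 made up 41.3% and 34.5% of it in PDGFRa-only libraries, 26.3% and 24.0% in double-positive libraries and 0% and 0.117% in PECAM1-only libraries. Its RefSeq promoter, at chr5:53049103-53049402 on the plus strand and inside the longer GENCODE gene, is shown as that of the gene with the highest fitted log2 fold change, and that of Slc27a2 (chr2:126552774-126553073, plus strand) as that of a gene with 0 counts in PDGFRa-only libraries. Capitals mark TGCGCNC matches, 2 in Slc34a2 and 1 in Slc27a2, whose RefSeq start also lies inside its GENCODE gene.
Slc34a2: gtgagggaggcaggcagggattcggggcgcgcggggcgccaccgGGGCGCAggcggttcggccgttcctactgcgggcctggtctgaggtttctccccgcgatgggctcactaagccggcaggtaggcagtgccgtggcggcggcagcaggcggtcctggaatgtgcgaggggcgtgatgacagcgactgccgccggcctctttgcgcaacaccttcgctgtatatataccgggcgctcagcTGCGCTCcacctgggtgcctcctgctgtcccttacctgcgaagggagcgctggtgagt
Slc27a2: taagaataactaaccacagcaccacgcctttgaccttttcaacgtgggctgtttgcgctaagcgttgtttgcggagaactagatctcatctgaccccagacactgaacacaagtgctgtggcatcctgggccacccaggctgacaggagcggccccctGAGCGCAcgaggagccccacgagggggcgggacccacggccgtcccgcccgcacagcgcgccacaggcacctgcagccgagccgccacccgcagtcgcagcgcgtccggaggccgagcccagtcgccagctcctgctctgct

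Among the other inorganic ions, the sulphate carrier Slc26a2 was the most abundant per length, with 547 and 624 CPM in PDGFRa-only, 401 and 419 in double-positive and 96.8 and 98.8 in PECAM1-only libraries. All 4 PDGFRa-positive libraries exceeded the PECAM1-only ones, and the change was 2.58 ± 0.16 (adjusted p = 2.01e-11). The anion exchanger Slc4a2 was higher by 2.68 ± 0.30 (adjusted p = 1.72e-07) and the potassium-chloride cotransporter Slc12a4 by 1.30 ± 0.19 (adjusted p = 5.53e-06). The sodium-potassium-chloride cotransporter Slc12a2 had 26.5 and 32.6 CPM in PDGFRa-only, 64.0 and 48.5 in double-positive and 124 and 86.7 in PECAM1-only libraries, and fell by 1.82 ± 0.21 (adjusted p = 2.08e-07). Slc4a11, a transporter of the bicarbonate carrier family, fell by 3.99 ± 0.37 (adjusted p = 9.49e-09). The calcium exchanger Slc24a3 had 0 counts in the PECAM1-only libraries and was at least 15.2-fold higher in PDGFRa-only and at least 13.2-fold higher in double-positive cells.

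**Figure D4:**
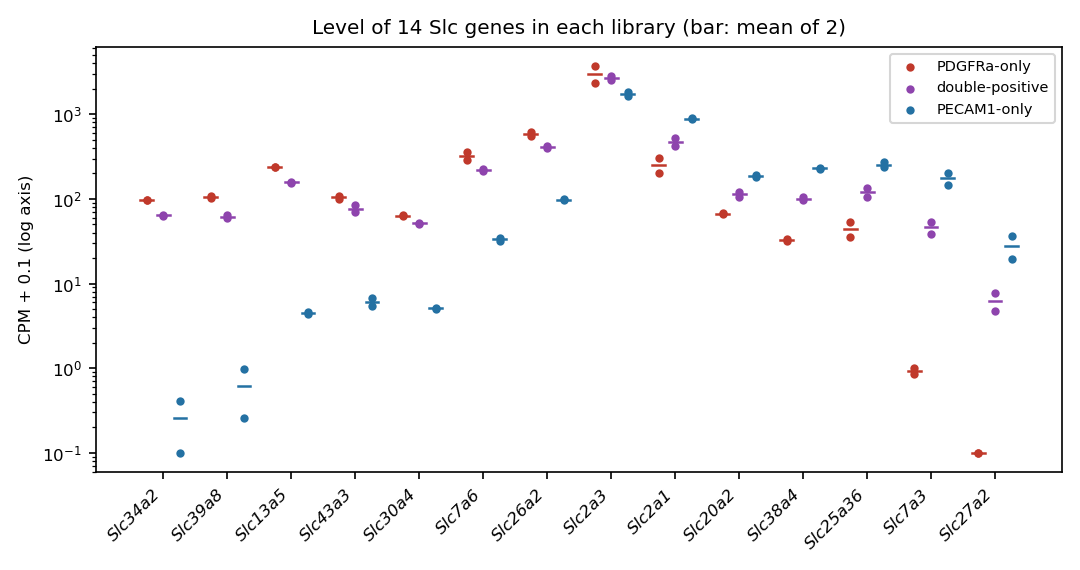
The level of 14 Slc genes in CPM plus 0.1 (log axis) in each library, with red points for PDGFRa-only, purple for double-positive and blue for PECAM1-only libraries and bars at the mean of 2. Both double-positive points lie between the other fractions for all of these genes except Slc2a3, where the PDGFRa-only points, at 2344 and 3682 CPM, spread around them.

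Citrate and other carboxylates included 8 carriers that were higher. The sodium-citrate cotransporter Slc13a5 (ENSMUSG00000020805, chromosome 11, 72241989 to 72267222), known from liver, had 235 and 239.6 CPM in PDGFRa-only, 154 and 158 in double-positive and 4.51 and 4.23 in PECAM1-only libraries. Both libraries of each fraction were close together, and the log2 fold change was 5.76 ± 0.21 in PDGFRa-only and 5.15 ± 0.21 in double-positive over PECAM1-only cells (adjusted p = 5.14e-15 and 3.92e-14). Its exons overlap 1700051A21Rik. The related sulphate carrier Slc13a4 was 29.9-fold higher in PDGFRa-only than PECAM1-only cells, where 2 counts were seen, with a counting interval of 7.86 to 254. Both of those counts came from PECAM1-only replicate 1, and without it the fitted log2 change was 7.79, against 4.74 with it.

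The lactate and pyruvate carrier Slc16a1 was the most abundant of its family, with 208 and 335 CPM in PDGFRa-only, 172 and 214 in double-positive and 101 and 111 in PECAM1-only libraries (1.36 ± 0.20, adjusted p = 4.58e-06). Slc16a3, the lactate exporter of glycolytic cells, was higher by 0.52 ± 0.21 (adjusted p = 0.0332), a call lost under upper-quartile scaling (0.32), library size alone (0.23), the stricter count filter (0.48), DESeq2 (0.48) and RPKM (0.02), and without PDGFRa-only replicate 2 (0.20) or PECAM1-only replicate 1 (0.40). Without PDGFRa-only replicate 1 it was 0.80. Slc16a5 fell by 3.97 ± 0.66 (adjusted p = 2.63e-05). The partners of Slc16a1 at the plasma membrane, Bsg and Emb, were higher by 1.74 ± 0.18 and 1.82 ± 0.16 on the log2 scale (adjusted p = 4.29e-08 and 4.93e-09).

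Nucleotide sugar carriers supply the glycosylation enzymes of the Golgi apparatus and the endoplasmic reticulum. The GDP-fucose carrier Slc35c1 (ENSMUSG00000049922, chromosome 2, 92452764 to 92460538) had 82.2 and 81.7 CPM in PDGFRa-only, 58.4 and 56.2 in double-positive and 6.26 and 9.41 in PECAM1-only libraries. The fractions did not overlap, and the log2 fold change was 3.39 ± 0.22 (adjusted p = 2.87e-11). The UDP-galactose carrier Slc35a2 was higher by 2.11 ± 0.24 (adjusted p = 1.85e-07), the sulphate donor carrier Slc35b2 by 1.80 ± 0.25 (adjusted p = 3.24e-06), the CMP-sialic acid carrier Slc35a1 by 0.99 ± 0.18 (adjusted p = 7.80e-05) and Slc33a1, the acetyl-CoA carrier of the endoplasmic reticulum, by 1.83 ± 0.24 (adjusted p = 1.50e-06).

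Slc35f1 had the highest log2 fold change of the class at 4.16 ± 0.33 (adjusted p = 9.11e-10), followed by Slc35c1, and Slc35f5 came next at 3.04 ± 0.21 (adjusted p = 7.49e-11). Slc35f2 was the only lower member, with 7.41 and 7.55 CPM in PDGFRa-only, 20.0 and 15.6 in double-positive and 44.1 and 40.9 in PECAM1-only libraries (-2.50 ± 0.23, adjusted p = 9.75e-09). Slc35a1 had 59.3 and 56.3 CPM in PDGFRa-only libraries, against 35.9 and 34.1 in double-positive and 28.2 and 29.8 in PECAM1-only libraries. It was not called between double-positive and PECAM1-only cells (0.27 ± 0.18, adjusted p = 0.261), and was called higher in PDGFRa-only than in double-positive cells (0.72 ± 0.18, adjusted p = 0.00756), which did not pass without double-positive replicate 1 (0.75) or 2 (0.69).

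In the inner mitochondrial membrane, the ADP/ATP carriers exchange the products of oxidative phosphorylation. Slc25a4 (ENSMUSG00000031633, chromosome 8, 46206797 to 46211284), known as the heart and muscle form, had 606 and 660.5 CPM in PDGFRa-only, 510.0 and 468 in double-positive and 175 and 164 in PECAM1-only libraries, a log2 fold change of 1.90 ± 0.16 (adjusted p = 1.57e-09). Slc25a5, the form of dividing cells, had 166 and 157, 182 and 163, and 194 and 179 CPM in the same fractions and did not pass (-0.21 ± 0.15, adjusted p = 0.254), but was called lower with upper-quartile scaling (-0.41) and library size alone (-0.50). It has near-identical processed pseudogenes, and how reads that match several places were counted is not given in the sources used here. The germ cell form Slc25a31 fell by 2.76 ± 0.45 (adjusted p = 4.26e-05). Slc25a4 made up 71.4% and 74.5% of the set per exon length in PDGFRa-only, 65.6% and 66.0% in double-positive and 36.5% and 37.8% in PECAM1-only libraries.

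Slc25a36 (ENSMUSG00000032449, chromosome 9, 97074961 to 97111157), a pyrimidine nucleotide carrier, had 35.2 and 52.7 CPM in PDGFRa-only, 105 and 133 in double-positive and 235 and 274 in PECAM1-only libraries. It fell by 2.52 ± 0.20 in PDGFRa-only against PECAM1-only cells (adjusted p = 6.11e-10). The aspartate-glutamate carrier Slc25a13 fell by 1.197 ± 0.19 (adjusted p = 1.27e-05), while its close relative Slc25a12 did not pass (-0.18 ± 0.20, adjusted p = 0.464). Among the ATP-Mg/phosphate carriers, Slc25a24 was higher by 2.79 ± 0.30 (adjusted p = 7.00e-08) and Slc25a23 was 110-fold lower, from 1 count in the PDGFRa-only libraries, with a counting interval of 19.5 to 4391. The glutamate carrier Slc25a22 and Slc25a44, a carrier of branched-chain amino acids, were higher by 2.78 ± 0.24 and 2.72 ± 0.22 (adjusted p = 2.05e-09 and 1.18e-09). The citrate carrier Slc25a1 was higher by 1.04 ± 0.18 (adjusted p = 4.95e-05) and the carnitine carrier Slc25a20 by 0.86 ± 0.18 (adjusted p = 0.000244), while the phosphate carrier Slc25a3 did not pass (0.27 ± 0.15, adjusted p = 0.133).

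Nucleobase and vitamin carriers were led by Slc43a3 (ENSMUSG00000027074, chromosome 2, 84936579 to 84958509), a purine nucleobase carrier, with 109 and 99.1 CPM in PDGFRa-only, 83.6 and 69.3 in double-positive and 5.39 and 6.59 in PECAM1-only libraries (log2 fold change 4.12 ± 0.22, adjusted p = 1.38e-12). The proton-coupled folate carrier Slc46a1 had 60.2 and 36.7 CPM in PDGFRa-only, 35.6 and 22.7 in double-positive and 5.24 and 4.55 in PECAM1-only libraries (3.29 ± 0.29, adjusted p = 5.49e-09). Its lowest PDGFRa-only library was just above its highest double-positive library, and the call between these fractions (0.72 ± 0.24, adjusted p = 0.0463) did not pass without PDGFRa-only replicate 1 (0.34) or double-positive replicate 2 (0.43). The concentrative nucleoside carrier Slc28a1 fell by 1.54 ± 0.27 in PDGFRa-only and by 1.69 ± 0.27 in double-positive against PECAM1-only cells (adjusted p = 5.45e-05 and 3.56e-05), and the PDGFRa-only and double-positive libraries overlapped. The riboflavin carrier Slc52a3 and the vitamin C carrier Slc23a1 were higher by 1.76 ± 0.31 and 1.51 ± 0.34 (adjusted p = 5.93e-05 and 0.000721). Another vitamin C carrier, Slc23a2, fell by 0.54 ± 0.20 (adjusted p = 0.0279), or by 0.24 without PDGFRa-only replicate 1 and 0.44 without PECAM1-only replicate 1, where it did not pass, by 0.92 without PDGFRa-only replicate 2 and by 0.83 with library size alone.

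Fatty acid carriers of the Slc27 family activate the fatty acids that they take up. Slc27a2 (ENSMUSG00000027359, chromosome 2, 126552407 to 126588243), a very-long-chain acyl-CoA synthetase, had 0 counts in both PDGFRa-only libraries, 7.55 and 4.69 CPM in double-positive and 36.2 and 19.3 in PECAM1-only libraries. Against a floor of 3 counts over the fraction, it was at least 104-fold lower in PDGFRa-only than in PECAM1-only cells and at least 22.6-fold lower than in double-positive cells. With RPKM the log2 fold changes were -3.21 and -1.36, and the second did not pass. Slc27a4 was higher by 1.67 ± 0.23 (adjusted p = 1.94e-06), and Slc27a1 did not pass (-0.41 ± 0.21, adjusted p = 0.109), but was called lower with upper-quartile scaling (-0.61), library size alone (-0.70) and RPKM (-0.84). The peptide carrier Slc15a1 was 55.2-fold lower, from 1 count, with a counting interval of 9.56 to 2212, and its relative Slc15a2 fell by 3.46 ± 0.62 (adjusted p = 6.90e-05). The lysosomal sialic acid exporter Slc17a5 had 50.7 and 59.4 CPM in PDGFRa-only, 42.3 and 44.7 in double-positive and 9.17 and 10.98 in PECAM1-only libraries (2.45 ± 0.21, adjusted p = 2.29e-09).

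Double-positive cells stood between the other fractions for most Slc genes that differed. Both double-positive libraries lay between the PDGFRa-only and the PECAM1-only libraries for 111 of 216 Slc genes (51.4%), against 42.6% of all genes tested. For 99 genes the libraries overlapped (45.8%), against 53.4% of all genes tested. These shares take in all genes, called or not, and a gene lies between only where the outer fractions separate. More Slc genes were called between the outer fractions, 50% higher and 20.8% lower, against 30.1% and 28.8% of all genes tested. The larger share in between is therefore not read as a trait of Slc genes. Both double-positive libraries were above all others for 5 genes (Slc18b1, Slc30a1, Slc7a2, Slc7a8 and Slc9a3r2), beside 1.91% of all genes, and below all others for Slc25a39, beside 2.07% of all genes; none of these 6 passed against both other fractions. On the linear CPM scale, the double-positive mean had covered a median of 61.5% of the distance from the PECAM1-only to the PDGFRa-only mean for the 108 higher Slc genes and 68.8% for the 45 lower ones. The same medians were 60.2% and 65.1% over all genes called higher and lower.

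In the direct comparison of PDGFRa-only with double-positive cells, 22 of the 27 lower Slc genes and 1 of the 21 higher ones changed at least 2-fold. The same count was not made over all genes, so this split is not read as a trait of Slc genes. Beside Slc7a3, which fell by 5.796 ± 0.36 (adjusted p = 4.13e-10), Slc25a36 fell by 1.42 ± 0.19 (adjusted p = 2.37e-05), Slc35f2 by 1.25 ± 0.24 (adjusted p = 0.00114), Slc2a1 by 0.88 ± 0.18 (adjusted p = 0.00197) and Slc20a2 by 0.77 ± 0.16 (adjusted p = 0.00198). Slc5a11, a sodium-coupled inositol carrier, had 3.14 and 2.11 CPM in PDGFRa-only, 8.81 and 8.92 in double-positive and 9.03 and 5.802 in PECAM1-only libraries. It was lower in PDGFRa-only cells than in either other fraction (-1.79 ± 0.37 against double-positive, adjusted p = 0.00183) and was not called between those (0.25 ± 0.31, adjusted p = 0.557). With RPKM the change against double-positive was -1.16 and did not pass. Of the higher genes, Slc35f1 was at 0.95 ± 0.25 on the log2 scale (adjusted p = 0.0112), which did not pass without PDGFRa-only replicate 1 (0.60) or double-positive replicate 2 (0.89) or with RPKM (0.82), and Slc39a8 had 0.77 ± 0.19 (adjusted p = 0.00629), which did not pass without double-positive replicate 1 (0.71). Of the 21 higher genes, 3 were called again without replicate 1 of that fraction and 4 without replicate 2.

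A list of 44 genes outside the Slc family, called transport partners here, held pumps, receptors, metal-binding proteins, enzymes and Slco carriers. They were listed whether or not they act on an Slc protein, and 39 were tested. In PDGFRa-only over PECAM1-only cells 24 were higher and 7 lower, beside 30.1% and 28.8% of all genes tested. In double-positive over PECAM1-only cells 19 were higher and 7 lower, beside 21.8% and 16.4%, and in PDGFRa-only over double-positive cells 6 and 5, beside 5.94% and 11.7%. The endocytic receptor genes Cubn and Lrp2, which take up proteins and vitamin carriers in the visceral endoderm, had 5111 and 6077 CPM and 3065 and 4190.4 CPM in PDGFRa-only libraries, 3891 and 4305 and 2849 and 3029.5 in double-positive libraries, and 5.10 and 4.39 and 209.6 and 239.8 in PECAM1-only libraries. Their partner Amn had 83.1 and 65.1 CPM in PDGFRa-only, 31.9 and 33.6 in double-positive and 0 and 0.314 in PECAM1-only libraries. The prostaglandin carrier Slco2a1, of the separate Slco family, had 757 and 762 CPM in PDGFRa-only, 385 and 509 in double-positive and 1.16 and 2.20 in PECAM1-only libraries (log2 fold change 8.82 ± 0.28, adjusted p = 7.22e-16). Glutamine synthetase, Glul, was higher by 3.76 ± 0.18 in PDGFRa-only over PECAM1-only cells (adjusted p = 3.09e-13). Txnip, a protein that lowers glucose uptake by drawing Slc2a1 from the cell surface, had 8.31 and 8.61 CPM in PDGFRa-only, 51.8 and 70.1 in double-positive and 156 and 207 in PECAM1-only libraries (-4.42 ± 0.23, adjusted p = 1.03e-12). The zinc sensor gene Mtf1 was higher by 0.61 ± 0.19 (adjusted p = 0.00786). The metal-binding protein genes Mt1 and Mt2 moved apart in the same comparison. Mt1 was higher by 1.36 ± 0.26 (adjusted p = 0.000134), and Mt2 changed by -1.70 ± 0.40 (adjusted p = 0.00324). These genes were named after their values were seen.

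Exons of 62 of the 216 Slc genes overlap those of another gene, in 54 cases on the opposite strand. Slc2a1, Slc13a5, Slc20a2, Slc27a2, Slc30a4 and Slc11a2 are among the 62. The strand setting of the counting is not given in the sources used here, so reads of such pairs may have been shared or dropped.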

How the data were processed

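RNA of sorted mouse ESC fractions was amplified and sequenced, with 2 libraries per fraction. The authors deposited raw read counts per gene and RPKM values. The submitters' processing notes name cutadapt 1.2.1, Bowtie2 2.1.0, TopHat2 2.0.8b, HTSeq 0.5.4p3 and GRCm38; their settings and the annotation release are not given in the sources used here. The deposited RPKM columns share 1 maximum, so they appear to have been normalised to a common distribution.

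Counts were tested with edgeR 4.0.16 in R 4.3.3: filterByExpr with a minimum count of 10 left 13909 genes, libraries were scaled by TMM, and a robust quasi-likelihood fit gave 1 mean per fraction over all 6 libraries. P-values were adjusted by Benjamini-Hochberg over all 13909 genes, with a threshold of 0.05. The SE of each edgeR log2 fold change was derived from the test, as its absolute value divided by the square root of the F statistic. CPM values use the TMM-scaled library sizes. Levels between genes are CPM per kb of exon in GENCODE M21, which held 36639 of the 38561 identifiers. Alternatives used other scalings and filters, DESeq2 1.42.0, and limma 3.58.1 on log2(RPKM + 1) of the deposited values, whose fold changes understate those of low genes. The edgeR script was tested on simulated data. Python 3.11.15, pandas 2.3.3 and matplotlib 3.10.9 made the summaries and figures.

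The genes, substrate classes and lists were chosen with earlier results of these data known, and class assignments were corrected after the files were seen. Named genes were, per class, up to 6 of the highest level per kb, up to 6 with the smallest p in PDGFRa-only over PECAM1-only and up to 3 in each other comparison; per comparison, the 10 largest rises and 10 largest falls among called genes of at least 5 CPM; related carriers that moved apart; 8 transport partners; and both sorting genes. Others were named as relatives of these after their values were seen. Depth ran from 4809661 to 7273669 counts. No replicate pair was a duplicate. Counts differed by 26.8 times the sampling variance in PDGFRa-only libraries, the most discordant pair, by 5.57 in double-positive and by 5.92 in PECAM1-only libraries.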

Additional observations from a re-analysis of the deposited data

How the results depend on the processing

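The counts of Slc genes higher and lower in PDGFRa-only over PECAM1-only cells, and in double-positive over PECAM1-only cells, stayed within 1.5 times under the scalings, filters and tools tried. Higher genes in PDGFRa-only over double-positive cells numbered 13 with library size alone, 13 with DESeq2 and 5 with RPKM, against 21, and lower genes numbered 8 with RPKM, against 27. Leaving out 1 library gave 99 to 108 higher and 42 to 47 lower genes in PDGFRa-only over PECAM1-only, 68 to 96 and 22 to 39 in double-positive over PECAM1-only, and 3 to 29 and 21 to 27 in PDGFRa-only over double-positive cells. Slc2a3 reversed with RPKM, to -0.99 against PECAM1-only cells in both PDGFRa-positive fractions (adjusted p = 0.188 and 0.226); the cause was not tested. Deviations of same-numbered libraries had correlations of 0.132 between PDGFRa-only and double-positive, -0.0289 between PDGFRa-only and PECAM1-only, and 0.183 between double-positive and PECAM1-only cells. Whether the numbers pair the samples is not settled by the labels or by these values, and the fit has no block; with the replicate block the calls were 109 higher and 47 lower, 94 and 34, and 28 and 27 in the 3 comparisons. With 2 libraries per fraction, small changes and genes of few counts are the least certain.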
